A study of Caenorhabditis elegans with 2 samples.

Results

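The cytosolic ribosomal protein genes of Caenorhabditis elegans were examined for binding by HIF-1, the hypoxia-inducible factor of the worm. Members were all protein-coding genes whose symbol starts with rpl-, rps- or rla- followed by a number, which gave 81 of 19985 protein-coding genes on the WBcel235 assembly (ce11). Of these, 50 encode proteins counted here with the large subunit (rpl- and rla- genes) and 31 encode proteins of the small subunit (rps- genes). HIF-1 summits lay in the promoter windows of 17 of the 81 genes (21.0%), against 1.97% of all protein-coding genes. The strongest were at rpl-3, rpl-20, rpl-35 and rpl-15, all of the large subunit, and the bound genes also held 8 small subunit genes led by rps-1. A gene was called bound when a summit of the authors' thresholded peak list lay from 1000 bp upstream to 200 bp downstream of its annotated start.

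HIF-1 is a helix-loop-helix transcription factor that pairs with AHA-1 and recognises the hypoxia response core, ACGTG or GCGTG on either strand. In ample oxygen the protein is hydroxylated by EGL-9 and removed through VHL-1. Ribosomal proteins fold with ribosomal RNA into a large subunit, which joins amino acids, and a small subunit, which reads the messenger RNA. Their genes are short, strongly transcribed and used by every growing cell, and several carry in their introns the small nucleolar RNAs (snoRNAs) that guide the chemical modification of ribosomal RNA.

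Chromatin immunoprecipitation sequencing (ChIP-seq) was done on whole hermaphrodites of strain OR3350, a transgenic line that stably expresses HIF-1 fused at its C-terminus to GFP and FLAG. Animals were synchronised by bleaching and L1 starvation and collected as L4 larvae 55 h later. Chromatin was sonicated and precipitated with an antibody against GFP. There was 1 group with 2 biological replicates, and neither an oxygen level nor a second genotype is named. All values therefore describe the tagged line, in all tissues together, and a peak cannot be assigned to a cell type. The authors' lists held 13935 entries for replicate 1, 13823 for replicate 2, 6541 for the pooled reads and 631 in the thresholded list, which were the 631 strongest of the pooled list. Each entry carries a signal value of the authors, for which no source used here gives a formula, so signals were compared by rank within a list. The sequencing depth is unknown.

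The DNA under 8 strong member summits is shown first, because the letters that recur there are described further on. They are 8 of the 9 bound members with the highest signal, and rps-19, which is also among these 9 and has a core, is not printed here. These are ce11 bases in the direction of the gene, with the summit at base 51 and the core (GCGTG, or CACGC on the other strand) in capitals. The first 5 genes have the core and the last 3 do not. The run of rpl-12 was trimmed to 84 bases where its transcript begins, and the others have 101 bases. The runs lie at chrIII:3867530-3867630 on the plus strand for rpl-3, chrIV:4750016-4750116 on the minus strand for rpl-20, chrIII:7854638-7854738 on the plus strand for rpl-35 and chrIV:654871-654971 on the minus strand for rpl-15. Those of rps-1 and rps-28, on the plus strand, lie at chrIII:4475615-4475715 and chrIV:1659182-1659282. Those of rpl-12 and rpl-7A, on the minus strand, lie at chrIV:13240652-13240735 and chrIV:4390608-4390708.
rpl-3: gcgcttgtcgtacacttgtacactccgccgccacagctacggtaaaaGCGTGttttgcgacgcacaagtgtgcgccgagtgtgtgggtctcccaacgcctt
rpl-20: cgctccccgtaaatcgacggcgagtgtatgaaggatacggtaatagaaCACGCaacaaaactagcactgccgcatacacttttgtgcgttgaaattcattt
rpl-35: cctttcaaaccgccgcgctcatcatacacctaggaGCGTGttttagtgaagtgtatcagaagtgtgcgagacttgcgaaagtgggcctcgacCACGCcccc
rpl-15: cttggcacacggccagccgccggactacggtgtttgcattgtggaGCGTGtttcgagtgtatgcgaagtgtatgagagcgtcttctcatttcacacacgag
rps-1: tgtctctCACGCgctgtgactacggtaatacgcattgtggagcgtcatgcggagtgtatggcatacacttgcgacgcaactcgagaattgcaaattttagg
rpl-12: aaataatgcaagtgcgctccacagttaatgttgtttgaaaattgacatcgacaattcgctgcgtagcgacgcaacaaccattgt
rpl-7A: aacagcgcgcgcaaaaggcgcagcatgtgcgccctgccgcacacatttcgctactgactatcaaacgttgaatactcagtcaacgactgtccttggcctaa
rps-28: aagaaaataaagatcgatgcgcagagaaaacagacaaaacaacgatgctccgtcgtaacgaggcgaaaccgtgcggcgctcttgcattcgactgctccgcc

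Both subunits had bound genes, and their shares exceeded that of other genes in each list examined. In the thresholded list 9 of 50 large subunit genes (18%) and 8 of 31 small subunit genes (25.8%) were bound, against 1.89% of the 19904 other protein-coding genes. None of the 3 rla- genes, which encode the acidic proteins of the large subunit's stalk, had a summit in any list. In the pooled list, which by its label holds background as well as peaks, 55 members (67.9%) had a summit in the window, beside 12.2% of all protein-coding genes. By subunit these were 32 large (64.0%) and 23 small (74.2%) genes. Some neighbouring members of different subunits shared a summit, which then counted for both. The 38 members found in the pooled but not the thresholded list had 35 distinct summits.

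Each replicate list gave a similar picture on its own. Replicate 1 had a summit at 57 members (70.4%), beside 20.5% of all genes, with 32 large (64.0%) and 25 small (80.6%). Replicate 2 had a summit at 47 members (58%), beside 19.7% of all genes, with 25 large and 22 small (71.0%). Both replicate lists are likewise labelled as holding background, so their 631 strongest entries were also taken alone. These marked 14 members in replicate 1 (17.3%, beside 1.94% of all genes) and 16 in replicate 2 (19.8%, beside 1.85%). The small subunit had the larger share in all of these counts, by differences of a few genes, and no test was made of the difference. The direction turned when summits were given to the nearest gene start, with 14% of large and 9.68% of small subunit genes bound. It also turned in a window of 200 bp to either side of the start, with 6% and 3.23%.

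**Figure D1:**
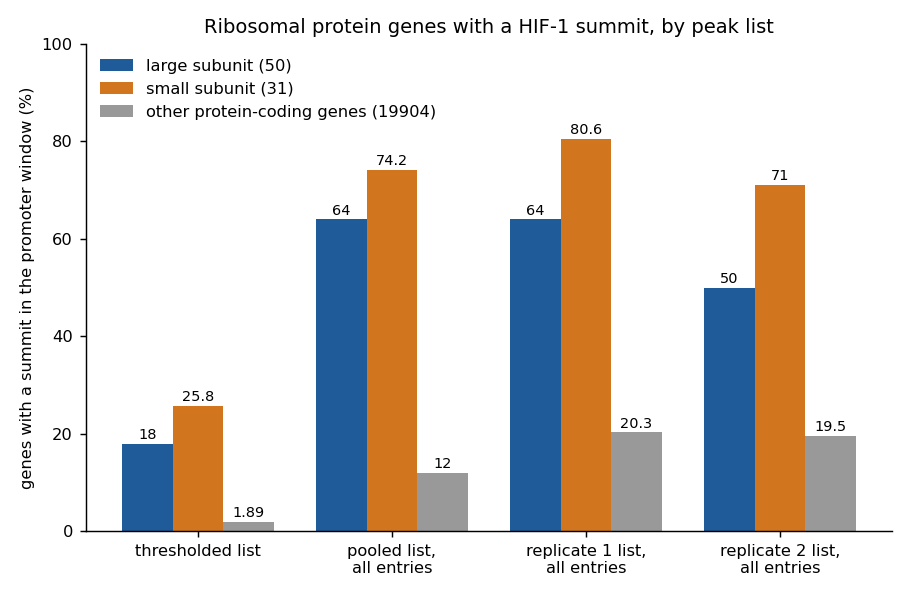
Share of large subunit genes, small subunit genes and other protein-coding genes with a HIF-1 summit from 1000 bp upstream to 200 bp downstream of the start, in % of the genes of each class, for the thresholded, pooled and 2 replicate lists. In the thresholded list the bars stand at 18%, 25.8% and 1.89%, and in all 4 lists both subunits are above the other genes.

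Among the large subunit genes, the summit of rpl-3 was the strongest of any member. rpl-3 encodes a protein that reaches towards the site where peptide bonds are formed. Its gene (WBGene00004414) lies on chromosome III from 3867854 to 3869587 on the plus strand, and the peak spanned 3867446 to 3867721 with the summit 274 bp upstream of the start. The signal was 341.7, rank 26 of 631 in the thresholded list, and the replicates placed it at signal 173.1 (rank 26) and 172.5 (rank 25). The core lay 1 bp from the summit. Both replicates therefore gave this gene nearly the same rank, and no other annotated protein-coding gene had its window over the summit.

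A further 3 large subunit genes had signals near 200. At rpl-20 (WBGene00004432, chromosome IV, 4749123 to 4749778, minus strand) the signal was 220.4, rank 43, with 120.6 (rank 44) in replicate 1 and 94.9 (rank 59) in replicate 2. Its summit lay 288 bp upstream, on a core, and also 174 bp upstream of Y17G9B.5, which is transcribed the other way. At rpl-35 (WBGene00004449, chromosome III, 7855134 to 7855646, plus strand), whose protein sits beside the exit of the peptide tunnel, the signal was 211.95, rank 49, with 115.6 (rank 51) and 97.1 (rank 56) in the replicates. The summit was 446 bp upstream and 2 cores lay around it. At rpl-15 (WBGene00004427, chromosome IV, 653480 to 654576, minus strand) the signal was 198.3, rank 58, with 95.6 (rank 75) and 101.25 (rank 51), and the summit lay 345 bp upstream with a core 3 bp away. Thus the 4 strongest member summits were also the 4 strongest of members in each replicate.

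The other 5 bound large subunit genes were weaker. rpl-12 encodes a protein at the base of the stalk, where translation factors dock, and had the summit nearest to a start, 34 bp upstream, with a signal of 136.2 (rank 109). In the replicates it stood at 81.8 (rank 95) and 50.2 (rank 178), with both summits on the same base. rpl-7A had a signal of 91.0 (rank 224) with its summit 68 bp upstream, and 51.6 (rank 211) and 33.9 (rank 399) in the replicates. rpl-24.2, rpl-22 and rpl-41.2 were lower still, at ranks from 479 to 627. rpl-24.2 is a member by its symbol, and whether its protein is part of the ribosome or acts in its assembly was not settled here. It had 61.5 (rank 479), 147 bp upstream, with 28.3 (rank 682) and 32.2 (rank 445). rpl-22 had 56 (rank 591), 314 bp upstream, with 34.0 (rank 475) and 24.1 (rank 851). rpl-41.2, which encodes one of the smallest ribosomal proteins, had 54.2 (rank 627), 223 bp upstream, with 22.97 (rank 1050) and 28.9 (rank 554). The lowest signal of the thresholded list was 54.1, so rpl-41.2 was the member just inside it.

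Of the small subunit genes, rps-1 had the strongest summit. Its gene (WBGene00004470) lies on chromosome III from 4475918 to 4476876 on the plus strand. The signal was 141.1 (rank 105), 253 bp upstream, with 79.8 (rank 101) in replicate 1 and 58.7 (rank 135) in replicate 2. rps-19, whose human counterpart is mutated in Diamond-Blackfan anaemia, had 102.2 (rank 182), 327 bp upstream, with 52.2 (rank 208) and 46.9 (rank 200). rps-28 had 79.6 (rank 298), 459 bp upstream, with 40.4 (rank 342) and 34.5 (rank 380). For these 3 genes the ranks in the replicates stayed on the same side of 631.

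The remaining 5 small subunit genes had ranks from 311 to 551. rps-12 had 78.4 (rank 311), 180 bp upstream, with 38.7 (rank 364) and 38.6 (rank 301). rps-15, whose protein lies in the head of the subunit close to where codons are read, had 75.9 (rank 326), 326 bp upstream, with 29.1 (rank 644) and 42.8 (rank 242). rps-18, also of the head, had 67.0 (rank 395) and the most distant summit, 646 bp upstream, with 23.4 (rank 1021) and 38.9 (rank 291). All but rps-12 were past rank 631 in at least 1 replicate. rps-20 had 62.0 (rank 472), 253 bp upstream, with 37.6 (rank 389) and 24.0 (rank 871). rps-0, related to the laminin receptor protein of mammals, had 58.2 (rank 551), 329 bp upstream, with 20.8 (rank 1334) and 32.8 (rank 428).

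**Figure D2:**
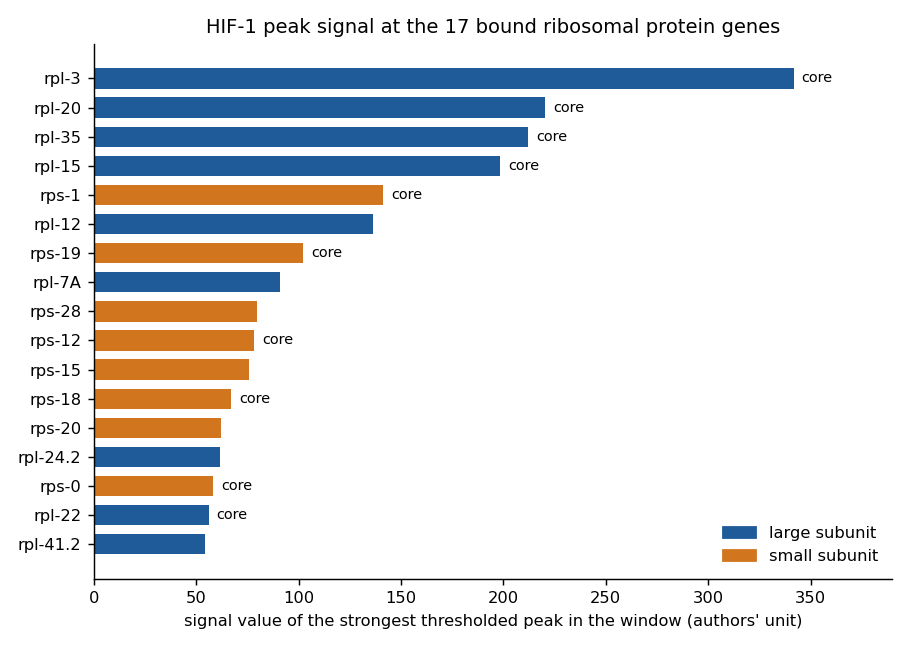
Signal value of the thresholded peak (authors' unit) at each of the 17 bound ribosomal protein genes, blue for the large and orange for the small subunit, with "core" beside genes that hold ACGTG or GCGTG within 50 bp of the summit. The values fall from 341.7 at rpl-3 to 54.2 at rpl-41.2, and the 4 longest bars are large subunit genes with a core.

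The median signal was 136.2 (median rank 109) over the 9 large and 77.1 (median rank 318.5) over the 8 small subunit genes, with overlapping ranges. Set against other promoters, the median signal of all member summits was 79.6, and that of the 293 other promoter summits was 78.8. Of these 293, 278 were nuclear and the rest lay on the mitochondrial genome, where there are no members. Comparisons with the 293 and with other bound genes keep the mitochondrial ones unless nuclear ones are named. In the stronger 50% of the list lay 10 of the 17 (58.8%) and 147 of the 293 (50.2%). The members thus had a summit more often than other genes, at signals spread over the whole list, with rpl-3 near its top.

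The thresholded list is labelled as having passed an irreproducible discovery rate (IDR) filter, a method that weighs agreement in rank between replicates. Its entries are the 631 strongest of the pooled list, which was made from both replicates. Single entries can therefore differ in rank between replicates. Closeness of the replicates at bound members is still in part fixed by the choice of this list, and the following values only describe it. All 17 had an entry in the window in both replicate lists, as had 392 of the 394 bound genes of any kind. The summits of the replicates lay a median of 20 bp apart, from 0 bp at rpl-12 to 104 bp at rpl-24.2, and 16 of the 17 pairs were within 100 bp. Spearman's rho of the ranks was 0.80 over the 17 bound members and 0.81 over the 43 members with an entry in both lists. Over the 26 unbound members among these it was 0.40. Unbound neighbours that share their entries were counted separately. These coefficients describe genes within 1 pair of libraries that share a control, and genes are not replicates. Replicate 1 gave the better rank at 8 bound members and replicate 2 at 9, and 10 of the 17 were among the 631 strongest of both. The last count is not given for all 394 bound genes, so it sets members neither above nor below them.

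**Figure D3:**
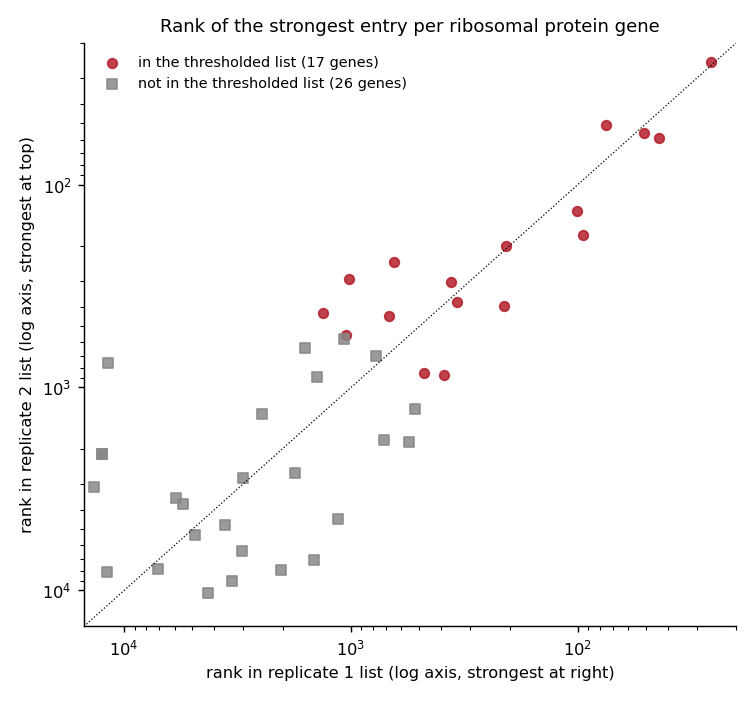
Rank of the strongest entry in the promoter window in replicate 1 (x) and replicate 2 (y), log axes with rank 1 towards the upper right, for the 17 bound (red) and 26 other (grey) ribosomal protein genes with an entry in both lists, and a dotted line of equal ranks. The red points lie near the line at the strongest ranks, as at rpl-3 (ranks 26 and 25), and depart from it at weaker ones, as at rps-0 (1334 and 428). The grey points scatter more widely at weaker ranks.

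Of the 64 members outside the thresholded list, 38 had a pooled entry, 40 an entry in replicate 1, 30 in replicate 2 and 26 in both. Their pooled signals ran from 21.3 to 51.7 with a median of 28.5. The strongest was rps-24, just outside the threshold, with a pooled signal of 51.7 (rank 694), 26.5 (rank 775) in replicate 1 and 26.2 (rank 701) in replicate 2. It was followed by rps-23 (50.02, rank 736), rpl-11.2 (48.8, rank 768), rpl-14 (48.2, rank 793) and rpl-38 (46.8, rank 836). Of these, rps-23 and rpl-11.2 were among the strongest 631 of replicate 1 at ranks 556 and 523. In replicate 2 they ranked 1855 and 1283. The summits of these 5 genes lay 260 to 565 bp upstream of the start, in the range of the bound members. No unbound member had a thresholded summit in its gene body or between the window and 2500 bp upstream.

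A further 20 of the 81 members had no entry in any of the 4 lists, 15 of them large subunit genes with the 3 rla- genes among them. In any one list most genes had none. Of all protein-coding genes, 12.2% had an entry in the pooled list, 20.5% in replicate 1 and 19.7% in replicate 2. The share of all genes without an entry in any list is not given. The 5 small subunit genes without one were rps-2, rps-5, rps-6, rps-25 and rps-27, and they are named here after their values were seen. Some paralogues differed in the same way. rpl-41.2 was bound and rpl-41.1, the next gene upstream on the same strand at 700 bp, had no entry. rpl-24.2 was bound and rpl-24.1 had a pooled signal of 25.1. rpl-11.2 and rpl-25.2 had pooled entries (48.8 and 31.3), and rpl-11.1 and rpl-25.1 had none. These pairs were also chosen after their values were seen. Reads from near-identical copies can be placed at either, and no source used here says how the authors treated such reads.

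Bound members lay on chromosomes I (5 of 25 members), II (1 of 10), III (5 of 18) and IV (6 of 18). None of the 8 members on V and the 2 on X was bound. With so few members, and no share of all genes given by chromosome, this is no trait of V or X. On these chromosomes rpl-38 (V) and rpl-11.2 (X) had pooled entries at ranks 836 and 768. Each bound member had a single thresholded summit, at a median of 288 bp upstream of its start, from 646 bp at rps-18 to 34 bp at rpl-12. None lay downstream of the start. Over all 394 bound genes the median was 277.5 bp upstream, with 25 (6.35%) downstream. Within 250 bp upstream lay the summits of 5 members (29.4%) and of 156 bound genes in all (39.6%). Many worm messenger RNAs receive a spliced leader in place of their first bases, so an annotated start can lie downstream of the base where transcription begins.

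**Figure D4:**
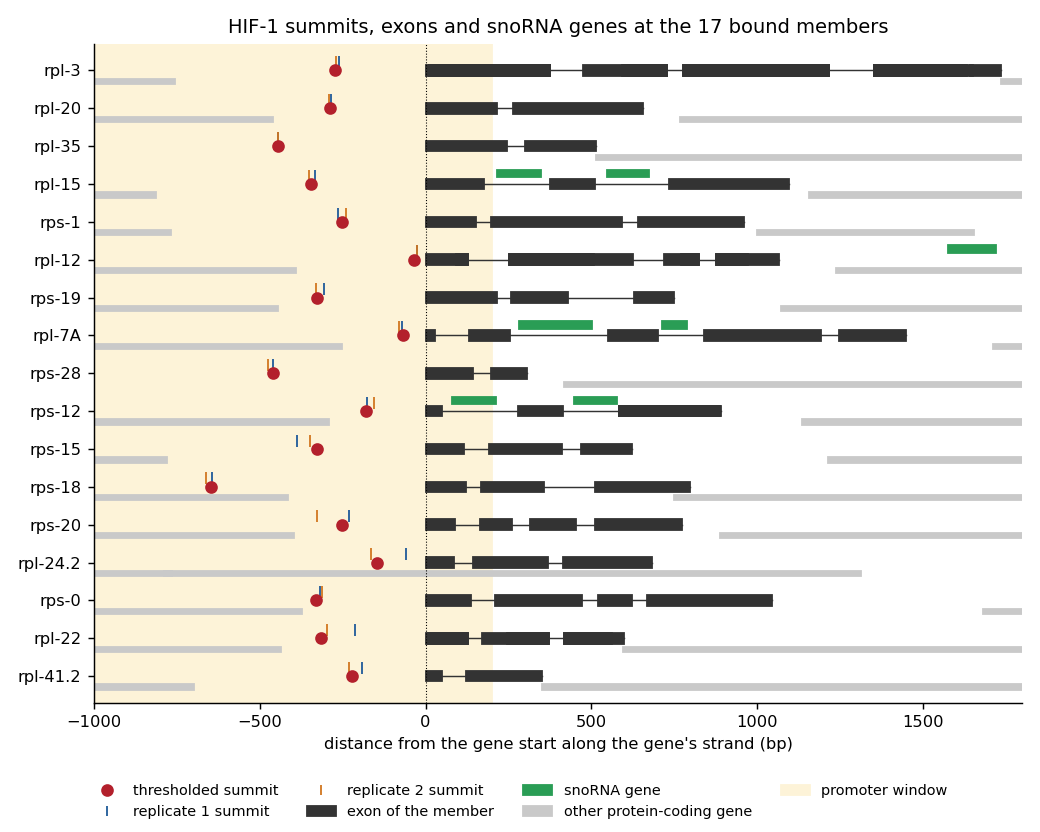
The 17 bound ribosomal protein genes aligned at their start (dotted line, distance in bp along the gene's strand), with thresholded summits (red), replicate summits (blue and orange ticks), exons (black), snoRNA genes (green), other protein-coding genes (grey) and the promoter window (yellow). All thresholded summits lie upstream of the start, between 646 and 34 bp, and a neighbouring gene begins close behind most of them.

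Most of these summits fell between a pair of genes transcribed away from each other. The next gene upstream was on the opposite strand for 14 of the 17 bound members (82.4%), for 62.5% of the 64 unbound members, for 66.0% of other bound genes and for 45.4% of all protein-coding genes. With a limit of 1000 bp on the gap the shares were 70.6%, 56.2%, 38.7% and 17.5%. The median gap to the upstream gene was 462 bp for bound and 571 bp for unbound members, 843 bp for other bound genes and 1156 bp for all. Close divergent neighbours were thus common among ribosomal protein genes, bound or not.

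In 12 of the 17 cases (70.6%) the summit also lay in the window of another protein-coding gene, as it did for 51.5% of other bound genes. These summits cannot be given to the ribosomal gene alone. The partners of large subunit genes were Y17G9B.5 (rpl-20), K11H12.8 (rpl-15), lin-54 (rpl-12), set-21 (rpl-7A) and ify-1 (rpl-22). Those of small subunit genes were ifet-1 (rps-1), hsr-9 (rps-19), Y41D4B.4 (rps-28), ska-3 (rps-12), F36A2.9 (rps-15), ekl-4 (rps-20) and rbg-3 (rps-0). lin-54 encodes a DNA-binding subunit of the DRM complex, ify-1 a securin, and ifet-1 a repressor of translation. For 7 members the start nearest to the summit was that of another gene. At rps-0 the summit lay 44 bp upstream of rbg-3 and 329 bp upstream of rps-0. At rps-19 it lay 118 bp upstream of hsr-9, at rps-12 113 bp from ska-3, at rpl-22 123 bp from ify-1, at rps-20 144 bp from ekl-4 and at rpl-20 174 bp from Y17G9B.5.

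At rps-18 the summit lay 231 bp downstream of the start of sec-61.A, a subunit of the translocation channel of the endoplasmic reticulum, inside its 5′ untranslated region. The summit of rps-1 lay in an exon of F56F3.10, a noncoding RNA gene, and that of rpl-24.2 in an intron of C03D6.1. The other 14 were outside genes. Only rpl-3, rpl-35, rps-18, rpl-24.2 and rpl-41.2 had a summit in no other protein-coding promoter window.

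A hypoxia response core was present in the 50 bp to either side of the summit in 10 of 17 bound members (58.8%), 5 of them large and 5 small subunit genes. Among the 293 other promoter summits, mitochondrial ones included, the share was 45.4%. In windows of the same size centred 500 bp to the left and right of the thresholded member summits the share with a core was 11.8% and 23.5%. All but 1 of the 10 in the thresholded list had the form GCGTG, which was found at 9 member summits (52.9%) and at 23.5% of other promoter summits. The form ACGTG was found at rpl-22 alone (5.88%), against 26.3% elsewhere. Both forms were searched on both strands and a summit can hold both.

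By strength, the core was found at 7 of the 10 in the stronger part of the list and at 3 of the 7 in the weaker part, and this difference was not tested. At rpl-3, rpl-20, rpl-15 and rps-0 the nearest core lay within 5 bp of the summit, as the capitals near base 51 in the printed runs show for the first 3. No count at this distance is given for other promoter summits. No core was near the summits of rpl-12, rpl-7A, rps-28, rps-15, rps-20, rpl-24.2 and rpl-41.2. Between 250 bp upstream and 50 bp downstream of the start the core was found at 3 of 17 bound members (17.6%), at 28 of 64 unbound members (43.8%) and at 41.1% of 19973 nuclear protein-coding genes. That stretch ends short of many summits, which lay farther upstream.

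Of the other motifs searched, TGCGTC was found at 4 member summits (23.5%), those of rpl-3, rps-1, rpl-12 and rpl-24.2, and at 17.1% of other promoter summits. Between 250 bp upstream and 50 bp downstream of the start it was found at 23.5% of bound members, 4.69% of unbound members and 8.8% of nuclear protein-coding genes. GAGAGA was found at 2 member summits (11.8%) and 19.8% of the others. TATAAA and TTTCAG were at no member summit and at 8.19% of the others each. The median share of G and C within 50 bp of the summit was 50.5% for members, from 37.6% to 58.4%, and 48.5% for other promoter summits. Member summits were therefore close to other bound promoters in base composition.

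Sequences of 8 letters that recurred among the member summits were then looked for, without a motif given beforehand. Only 2 were present at 4 or more of the 17, counting both strands. AAGTGTAT, or ATACACTT on the other strand, was found at rpl-15, rpl-20, rpl-35 and rps-1, which are 4 of the 5 strongest members. It was at 1 of the 293 other promoter summits (0.341%), at none of the 35 pooled summits of unbound members, at 0.512% of 2148 pooled promoter summits and in 1.26% of promoters from 250 bp upstream to 50 bp downstream of the start. TACGGTAA, or TTACCGTA, was found at rpl-3, rpl-20, rps-1 and rps-18. It was at 6 other promoter summits (2.05%), at 3 of the 35 (8.57%), at 0.698% of pooled promoter summits and in 1.16% of promoters. Either one was at 6 of the 17 member summits and 7 of the 293 others. Both were picked because they recurred here, so these shares carry no test.

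Longer shared runs were then looked for between pairs of members, and they were found mostly among the stronger ones. The longest run of letters common to the summits of 2 bound members, in either direction, was gcattgtggagcgt, of 14 letters, at rpl-15 and rps-1, and it was at none of the 293 other promoter summits. In both genes it lies just upstream of the summit, in the same direction, and in rpl-15 it runs into the core. Runs of 12 letters joined rpl-20 with rps-12 and rpl-7A with rps-0. That run was picked as the longest, so its absence from the 293 carries no test. Over all 136 pairs of bound members the median longest run was 7 letters, the same as over the 42778 pairs of other promoter summits. The longest run was 14 letters among member pairs and 28 letters among the far more numerous other pairs. Runs of 10 or more letters were found in 12 member pairs (8.82%) and in 4.37% of the other pairs. The bound members thus shared no single long sequence.

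snoRNA genes lay inside 3 of the 17 bound members (17.6%), which are rpl-15 (K11H12.12 and K11H12.13), rpl-7A (Y24D9A.9 and Y24D9A.10) and rps-12 (F54E7.10 and F54E7.11). Among the 64 unbound members the share was 15.6%, 10 genes. In all, 13 of the 81 ribosomal protein genes (16%) held 19 snoRNA genes. A snoRNA gene lay inside 0.996% of nuclear protein-coding genes and 4.09% of other bound nuclear genes. Counting also snoRNA genes within 1000 bp added rpl-12 with JC8.15. This gave 4 of 17 bound members (23.5%), 14 of 64 unbound members (21.9%) and 1.90% of nuclear protein-coding genes. Ribosomal protein genes were thus rich in snoRNA genes whether bound or not. Read the other way, 3 of the 13 members with a snoRNA inside (23.1%) and 14 of the 68 without (20.6%) were bound.

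Member summits did not lie on the snoRNA genes themselves. The nearest snoRNA gene was 260 bp away at rps-12, 350 bp at rpl-7A and 560 bp at rpl-15, each downstream of the host's start, as in the map of the bound genes. At rpl-12 it was 1608 bp away. None of the 17 peaks overlapped a snoRNA gene, and 10 of 278 other nuclear promoter peaks did (3.60%). A snoRNA gene lay within 1000 bp of 3 member summits (17.6%) and of 6.47% of the others. Among protein-coding genes that are no members, 15 of 186 with a snoRNA inside were bound (8.06%).

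Genes of other steps of protein synthesis were set beside the ribosomal proteins. Elongation factors, which carry transfer RNAs to the ribosome and move it along, had thresholded summits at 5 of 6 genes (83.3%). eef-1A.1 had a signal of 98.8 (rank 193, 402 bp upstream), eef-1G 90.0 (rank 231, 20 bp upstream), eef-1B.1 83.6 (rank 267, 19 bp downstream) and eef-1A.2 70.5 (rank 368, 345 bp upstream). The other two, named after their values were seen, were eef-2 with 65.3 (rank 425) and eef-1B.2, which was not bound. The core was near the summits of eef-1B.1 and eef-2. Except for eef-1A.2, each bound one shared its summit with a neighbouring gene's window. Genes with the symbols of initiation factors were bound at 2 of 34 (5.88%), iff-2 with 179.4 (rank 72) and eif-3.C with 111.2 (rank 154), both with a core. This list was made by symbol alone, and its genes need not all act in initiation.

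The remaining lists had few thresholded summits. Mitochondrial ribosomal proteins were bound at 1 of 70 genes (1.43%), mrps-21, whose summit lay 998 bp upstream, was shared with jmjd-1.2 and F29B9.11 and had no entry of replicate 2 in the window. Aminoacyl tRNA synthetases were bound at 2 of 32 genes (6.25%), cars-1 (65.0, rank 430) and ears-2 (54.1, rank 628). Ribosome biogenesis genes were bound at 1 of 33 (3.03%), nol-56 (57.1, rank 570). The ribosomal proteins under other symbols, ubl-1, ubq-2 and rack-1, were not bound. In the pooled list the shares were 83.3% for elongation factors, 36.4% for ribosome biogenesis, 26.5% for initiation factors, 25.7% for mitochondrial ribosomal proteins and 21.9% for the synthetases, beside 67.9% for the cytosolic ribosomal proteins. Cytosolic and mitochondrial ribosomal proteins, which serve different ribosomes, thus stood at 21.0% and 1.43% in the thresholded list. The latter is 1 gene of 70, near the 1.97% of all genes. In the lists with background the mitochondrial share was above that of all genes. It was 25.7% against 12.2% in the pooled list, 35.7% against 20.5% in replicate 1 and 24.3% against 19.7% in replicate 2.

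**Figure D5:**
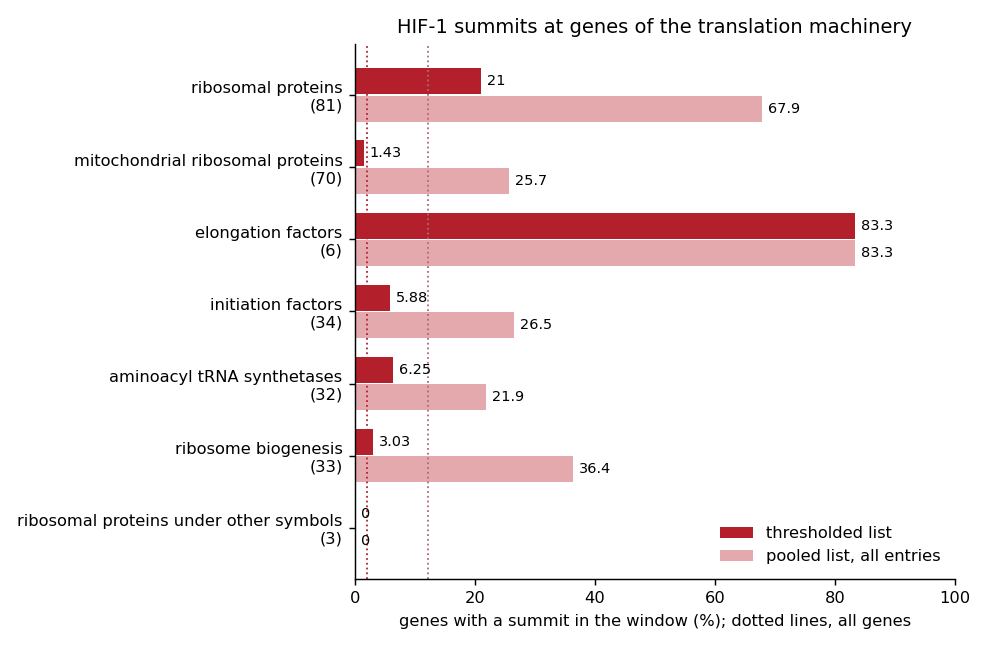
Share of genes (in %) with a HIF-1 summit in the promoter window for 7 classes of genes of protein synthesis, number of genes in brackets, in the thresholded list (dark) and the pooled list (light), with dotted lines at the shares of all protein-coding genes, 1.97% and 12.2%. Cytosolic ribosomal proteins (21.0% and 67.9%) and the 6 elongation factors (83.3% in both) reach farthest to the right.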

How the data were processed

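ChIP-seq peak lists of 2 biological replicates of 1 group were used. Per the labels, the lists exist on 2 genome builds, and those on ce11 were used. Per the deposited descriptions, 1 control entered peak calling. The thresholded list is labelled as passing IDR, and the pooled and replicate lists as peaks with background for input to IDR. No source used here names the aligner, the peak caller or the value of the IDR threshold. Each entry of the deposited lists has a signal value, which is the authors' own, and the summit as an offset from the entry's start. They hold no read counts, so the depth is unknown and no interval was computed.

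Summits were set against Ensembl release 115 genes of WBcel235, and coordinates are 1-based. Work was done in Python 3.11.15 with pandas 2.3.3, NumPy 2.4.6, SciPy 1.17.1 and matplotlib 3.10.9. A gene was called bound as described above, and its values are those of its strongest summit in the window. Motifs were searched on both strands within 50 bp of summits. Counts are descriptions without tests, as there is 1 group and the members and gene lists were chosen with earlier results of these data known. The named genes are all bound members, the 5 strongest unbound members by pooled signal, genes sharing a member's summit and at most 4 bound genes of each other translation list. Exceptions are marked. Of the names listed, 4 synthetases and 4 biogenesis genes matched no annotated gene. Summit assignment was tested on simulated data. Alternatives covered the window, the gene start, the list, the search distance and each replicate alone.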

Additional observations from a re-analysis of the deposited data

How the results depend on the processing

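The count of 17 bound members was 16 when the window was narrowed to 500 bp before and 100 bp after the start, which left out rps-18 (19.8% of members against 1.44% of all genes). It was 17 with 2000 bp upstream to 500 bp downstream, with any transcript start, with peak overlap in place of the summit, and, added after seeing the data, with a summit within 100 bp in both replicate lists. With 200 bp to either side it was 4 (3 large and 1 small), 4.94% of members against 0.726% of all genes. By the nearest gene start it was 10 (3 small), 12.3% against 2.74%, with a median distance of -263.5 bp. In the stronger 50% of peaks it was 10 (4 small), 12.3% against 0.996%. With all pooled entries it was 55 (32 large and 23 small), 67.9% against 12.2%. On the 631 strongest of 1 replicate the count was 14 or 16 (17.3% against 1.94% and 19.8% against 1.85%), replicate 1 first. These held 8 large genes in either and 6 or 8 small, with a median distance of -267 or -301 bp, again replicate 1 first. The core was at 7 of the 14 in replicate 1 and at 7 of the 16 (43.8%) in replicate 2. Both shares were below the 58.8% of the thresholded list. Other promoter summits are not given for single replicates. Whether members exceed them there, as against 45.4% in the thresholded list, is therefore not shown. Replicate 2 alone lost rpl-22 and rps-20 and gained rps-26. Replicate 1 alone lost rpl-24.2, rpl-41.2, rps-0, rps-15 and rps-18 and gained rpl-11.2 and rps-23. The core was at 6 member summits within 25 bp, at 10 within 100 bp, and at 1 with ACGTG alone. Other promoter summits are not given at 25 or 100 bp. No paired analysis was possible because there is 1 group and no contrast. With 2 replicates, no input values and an unknown depth, an absent entry shows only that none was listed.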
